A study of Saccharomyces cerevisiae with 24 samples.

Results

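Peaks of short, protected DNA that lie between convergent genes were described here, that is, between 2 neighbouring protein-coding genes that both end in the gap that separates them. A peak was a member when its deposited position fell between a left gene on the plus strand and a right gene on the minus strand of the S288C R64 annotation, when no tRNA, long terminal repeat, Ty element or replication origin was annotated in the gap, and when it lay over 30 kb from a chromosome end. By this rule 1196 of the 58467 peaks were members. They lay in 781 of the 1275 convergent gaps that met the rule, and 527 of those gaps held 1 member each. A further 621 peaks in gaps with one of the left-out features and 188 peaks near a chromosome end were not members. Every member had at least 1 read, and the members held 159440 reads in the 24 libraries.

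Yeast genes lie close together. Where a pair of them converge, the gap holds their terminators and 3' untranslated sequences but the promoter of neither. Promoters are nucleosome-depleted and are bound by transcription factors and general regulatory factors such as Reb1 and Abf1. Micrococcal nuclease (MNase) digests DNA that no protein covers, so fragments shorter than a nucleosome mark sites held by smaller proteins. Terminators are rich in A and T, and MNase cuts such DNA readily.

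The series followed budding yeast of the W303 background through 1 synchronous S phase. Both strains carried ade2-1, leu2-3, 112 and his3-11, 15 as well as trp1-1, ura3-1, can1-100 and rad5-535, and both lacked SML1, an inhibitor of ribonucleotide reductase. The control strain carried sml1_delta::URA3 only. The SSDDCS strain carried sml1_delta::HphNT and overexpressed limiting factors of replication initiation from 3 integrated constructs, each with the galactose-inducible GAL1-10 promoter between a pair of genes. They were Sld7 and Cdc45 at leu2 (marker LEU2), SLD3-A and Dbf4-A at his3 (marker HIS3), and Sld2 and Dpb11 at trp1 (marker TRP1). Cells were arrested in G1, received galactose during the arrest and were released into medium with galactose. Samples were taken in G1 and then at 5, 10, 15, 20, 25, 30, 35, 40, 45, 50 and 60 min. Each of the 24 strain and time points was 1 library, so there was no replicate error and no significance test. Intervals below are 95%. Those of reads cover counting error only. Those of shares of peaks take each peak as an independent draw, and peaks are not replicates of a strain or time point.

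Library totals lay between 481930 and 536253 reads in peaks, of which 26.6% to 37.7% fell in the ribosomal DNA (rDNA) array. Shares of a class are therefore given as percent of the reads outside that array, and reads per peak were scaled to the mean library total over all peaks. High-confidence peaks were those for which log2(normalised reads + 1), summed over the 24 libraries, exceeded 75, and 8217 peaks of the series passed. The same rule of no left-out feature and distance from the chromosome end was used for peaks in tandem gaps (4492 peaks) and in divergent gaps (2990). Peaks within coding sequence (41328) met the same distance. They were left out for a feature only when they lay inside a tRNA, long terminal repeat or Ty element, and origins were not considered. Peak positions were at least 100 bp apart, so a member in a narrow gap can hold reads whose source lies over the neighbouring gene end.

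The Reb1 motif TTACCCG lay within 50 bp of 7 of the 172 high-confidence members (4.07%, against 4.41% of all high-confidence peaks), and the 30 bases around each site are given 5' to 3' on the strand of the motif, with the motif in capitals, because these members hold the letters of a general regulatory factor's motif.
MIN3-SSO2, chrXIII:626085-626114, minus: acttcgttgtcgTTACCCGcacgttgtgtt
YDR029W-RAD28, chrIV:501665-501694, minus: tgtaggtttgtaTTACCCGgaaacgtatat
RRT15-MAS1, chrXII:490756-490785, minus: acagtatttgtgTTACCCGccctttaatat
SSU72-POP1, chrXIV:230811-230840, minus: tcaatgaaattaTTACCCGtctttgcacct
RPS29A-STE23, chrXII:899038-899067, plus: ttcgaaatacaTTACCCGgatcaattccat
YCG1-YSP2, chrIV:1120355-1120384, plus: cattacgcacaTTACCCGgtgggacaaatt
RMD1-NTH1, chrIV:449477-449506, minus: tattatatgtatTTACCCGgcgaatcatgg

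The Abf1 motif, a pair of short blocks around a spacer of 5 free bases, lay within 50 bp of 6 of them (3.49%, against 8.22% of all), shown in the same way with the whole motif in capitals.
YIL001W-SGN1, chrIX:355507-355536, plus: ttttacgcGTCACTGCGAACGgatgaatat
COQ21-SWC5, chrII:682081-682110, plus: tctgcagcATCGTTATACACGtagtgaaag
YDR029W-RAD28, chrIV:501646-501675, minus: gaaacgtatATCGCTACACACGaatataca
RPS26B-PMD1, chrV:424521-424550, plus: atgaattaATCGTATCCTACGgcaccttgt
CUZ1-YCK2, chrXIV:343357-343386, plus: aacaaacaATCGCGCGGAACGtcaagcgta
RPL31A-BRE1, chrIV:323121-323150, plus: tcaatgatATCATCTGCTACGcttgtacaa

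The peak with the clearest strain difference (CYC1-UTR1), the deepest one in a gap with no other annotated feature (CUP2-YRB30) and the one behind the galactose permease gene (GAL2-SRL2) held neither motif, and the 30 bases at their centres are given on the plus strand.
CYC1-UTR1, chrX:526715-526744: acattcacgccctcctcccacatccgctct
CUP2-YRB30, chrVII:191848-191877: gcggttgtttgttctcccggcaagctggca
GAL2-SRL2, chrXII:292164-292193: gaaaacgataacatgctctgccatcctttg

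Convergent peaks were shallow beside those of the other gaps. The median member had 4.73 normalised reads per library (quartiles 3.28 and 6.53), close to the 4.24 of coding peaks and below the 7.795 of tandem and 8.67 of divergent peaks. Of the 1196 members, 172 (14.4%) were high-confidence, against 47.2% of tandem, 52.1% of divergent and 4.43% of coding peaks. Members were near the whole series in both, as all peaks had a median of 4.615 reads and 14.05% were high-confidence. These 172 members lay in 145 gaps. Peaks were spaced much alike in the 3 kinds of gap, with 3.67 per kb in convergent and 4.11 per kb in both tandem and divergent gaps, so the classes differed in depth per peak more than in peak number. High-confidence members had a median GC content of 38.6% within 50 bp, and the low-confidence ones had 33.7%.

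Depth varied with the place of the peak in its gap. Of the 350 members within 50 bp of a gene end, 10.6% (7.55% to 14.3%) were high-confidence, and of the 175 members whose nearest gene end was over 150 and up to 250 bp away, 24% (17.9% to 31.0%) were. In the same direction, 9.09% (3.73% to 17.8%) of members in gaps of up to 150 bp and 20.8% (15.5% to 26.9%) of those in gaps over 700 bp were high-confidence. Median depth moved little over these bins, from 4.50 to 5.04 reads with distance from the gene end and from 4.04 to 5.02 reads with gap width. The bins include gaps that hold RNA genes, such as COQ21-SWC5, which is 1616 bp wide and has 4 high-confidence members. Position and width were not separated from such genes.

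Some of the deep members stood beside genes for non-coding RNAs, which the rule did not leave out. A total of 73 members lay in 18 gaps that held a small nucleolar RNA, small nuclear RNA, other non-coding RNA, centromere or pseudogene, and 26 of these 73 were high-confidence. Of the 18 members that lay up to 400 bp upstream of the start of an RNA gene, 15 were high-confidence, with a median of 12.8 reads. The 24 members inside an RNA gene had a median of 3.68 reads, and 3 of them were high-confidence. In the 763 gaps with no such feature, 146 of 1123 members (13%, 11.1% to 15.1%) were high-confidence. The rule thus left out only the promoters of the protein-coding genes at the edges of a gap. Genes that overlap an edge gene on the other strand were not checked, so a gap can hold the promoter of such a gene.

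The 10 deepest members show the same mixture. The deepest lay between CIC1 and YHR052C-B at position 212350 of chromosome VIII, 59 bp upstream of the non-coding RNA gene RUF5-1 at the edge of the CUP1 repeat. It had 26 to 65 reads in the control (median 41.5) and 28 to 41 in SSDDCS (median 34). Reads from the other copies of that repeat may have been placed there, so its depth is uncertain. The YJR128W-EFM3 peak, 143 bp upstream of SNR3, had 19 to 56 reads in the control (median 27) and 21 to 34 in SSDDCS (median 24.5). The MIN3-SSO2 peak, 251 bp upstream of SNR83 and with its Reb1 site 1 bp from the peak position, had 21 to 39 reads in the control and 18 to 36 in SSDDCS. In each of these the ranges of the 2 strains overlapped.

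The centromere of chromosome IX lay 100 bp from the YIL001W-SGN1 peak, which had 17 to 32 reads in the control and 14 to 26 in SSDDCS. The COQ21-SWC5 peak at position 682079 of chromosome II lay 217 bp upstream of LSR1, the gene of the U2 spliceosomal RNA. It had 17 to 33 reads in the control and 13 to 27 in SSDDCS. That gap held the most high-confidence members of all, 4, and the other 3 lay inside LSR1. The CHS5-JIP3 and SWI1-HST2 gaps, with no other feature annotated inside the gap, held 3 each. Whether another gene overlaps JIP3 or HST2 and has its promoter there was not checked.

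The other 5 of the 10 deepest peaks had no other feature annotated inside the gap. The CUP2-YRB30 peak, 57 bp behind CUP2, which encodes the copper-responsive activator of CUP1, had 20 to 54 reads in the control (median 26.5) and 20 to 41 in SSDDCS (median 31). Its highest library was G1 in both strains. The MRH1-LYS14 peak had 18 to 43 reads in the control and 20 to 33 in SSDDCS. The RPS11B-REB1 peak, between a ribosomal protein gene and the gene of Reb1 itself, had 16 to 38 and 15 to 29 reads. The ECM8-SLM4 peak had 18 to 34 and 15 to 31 reads, and the NCE102-SUE1 peak had 10 to 37 and 14 to 32. No one of these 5 separated the strains.

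Both strands within 50 bp of the peak were searched. A Reb1 motif was found at 4.07% (1.65% to 8.21%) of high-confidence members, 7.46% of tandem, 7.57% of divergent and 1.47% of coding peaks, against 4.41% of all high-confidence peaks. An Abf1 motif was found at 3.49% (1.29% to 7.44%) of members, 12.1% of tandem, 13.7% of divergent and 4.69% of coding peaks, against 8.22% of all. Among the 146 members in gaps with no other feature, 3 had Reb1 and 2 had Abf1.

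TATATA, which is found in promoters as a TATA box and in yeast 3' ends as an efficiency element of polyadenylation, was present at 17.4% (12.1% to 23.9%) of high-confidence members, 9.25% of tandem, 7.38% of divergent and 5.79% of coding peaks, and at 6.55% of all. At low-confidence members its share was 16.1%. Within 25 bp it was at 1.16% of high-confidence members, 1.65% of tandem and 0.949% of all high-confidence peaks, and at 4.59% of low-confidence members. A run of 7 A was present at 24.4% of members, 26.0% of tandem, 20.7% of divergent and 5.62% of coding peaks, and at 16.1% of all.

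The remaining motifs were rare at high-confidence members. The cell-cycle elements MCB (ACGCGT) and SCB (CACGAAA) were at 6 and 5 members, against 1.91% and 1.959% of all high-confidence peaks. Ume6 (GGCGGC) was at 6, Rsc3 (CGCGCG) at 5, Tbf1 (ACCCTAA) at 2 and Rap1, Cbf1 (CACGTG) and Gcn4 (TGACTCA) at 1 each. In all high-confidence peaks Ume6 was at 3.88%, Rsc3 at 1.91%, Tbf1 at 1.05%, Rap1 at 0.803%, Cbf1 at 2.48% and Gcn4 at 1.13%. The Gal4 pattern, CGG and CCG around 11 free bases, was at 0 of 172 members, which allows a share of up to 2.12%, and at 1.44% of all.

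Through S phase the share of reads in convergent gaps hardly moved, while that of the other gaps dropped. Convergent gaps held 1.899% (1.85% to 1.95%) of the reads outside rDNA in control G1 and 2.02% (1.97% to 2.07%) in SSDDCS G1. Over the 24 libraries the share lay between 1.82%, in the control at 30 min, and 2.06%, in the control at 45 min. Its mean over 12 libraries was 1.92% ± 0.0815 (SD over time points) in the control and 1.92% ± 0.0453 in SSDDCS. In the control 5 of the 11 later libraries were above G1, and in SSDDCS all 11 were below it.

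Against G1, the mean share at 20 to 35 min, called mid S phase here, differed by -0.03 on the log2 scale (-0.07 to 0.01) in the control and by -0.09 (-0.13 to -0.05) in SSDDCS. With all reads in peaks as the denominator these values were 0.06 and 0.08, so the direction rests on leaving out the rDNA array. Tandem gaps differed by -0.39 and -0.47, divergent gaps by -0.38 and -0.47, and coding peaks by 0.18 and 0.23. Tandem gaps went from 16.1% in control G1 to 11.95% at 25 min, and coding peaks from 51.2% to 58.9%. For every 100 tandem reads there were accordingly 11.8 convergent reads in control G1 and 15.5 at 25 min, and in SSDDCS 12.35 in G1 and 16.5 at 30 min. Convergent peaks thus took a middle course between the other gaps and coding sequence.

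**Figure D1:**
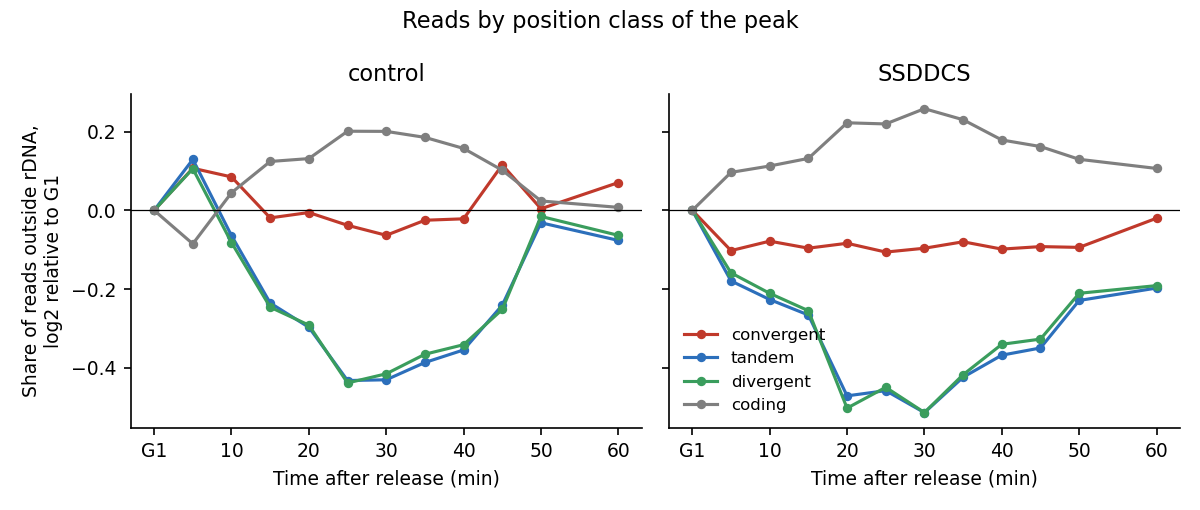
Share of the reads outside rDNA in convergent, tandem, divergent and coding peaks (log2 relative to the same strain's G1, y axis) by minutes after release (x axis) in the control (left) and SSDDCS (right), 1 library per point. Convergent peaks stay between -0.11 and 0.12, while tandem peaks reach -0.43 and -0.51.

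The deep and the shallow members behaved differently. The 172 high-confidence members differed by -0.21 (-0.27 to -0.14) in the control and by -0.33 (-0.40 to -0.27) in SSDDCS from G1 to mid S phase, and the 1024 others by 0.05 (0.00 to 0.10) and 0.03 (-0.02 to 0.08). The high-confidence share was 0.661% in control G1, 0.800% at 5 min and 0.542% at 25 min, its lowest. In SSDDCS it was 0.725% in G1, its highest, and 0.562% at 35 min, its lowest.

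Because depth itself moved with the change, classes were set side by side within bins of mean reads, which match depth only roughly. At 10 to 15 reads per peak, the 82 convergent peaks differed by -0.27 (-0.37 to -0.17) in the control and -0.31 (-0.41 to -0.21) in SSDDCS. The 726 tandem peaks of that depth differed by -0.43 (-0.47 to -0.40) and -0.52 (-0.56 to -0.49), and the 576 coding peaks by -0.05 (-0.09 to -0.01) and -0.04 (-0.08 to 0.00). At 15 to 60 reads the 31 convergent peaks differed by -0.38 (-0.50 to -0.26) and -0.39 (-0.51 to -0.26), against -0.54 and -0.66 in tandem peaks. There the convergent intervals overlapped those of coding peaks, which differed by -0.30 (-0.34 to -0.25) and -0.36 (-0.41 to -0.32). Below 5 reads the 649 convergent peaks differed by 0.08 in both strains, against 0.01 in tandem peaks in both and 0.24 and 0.31 in coding peaks.

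**Figure D2:**
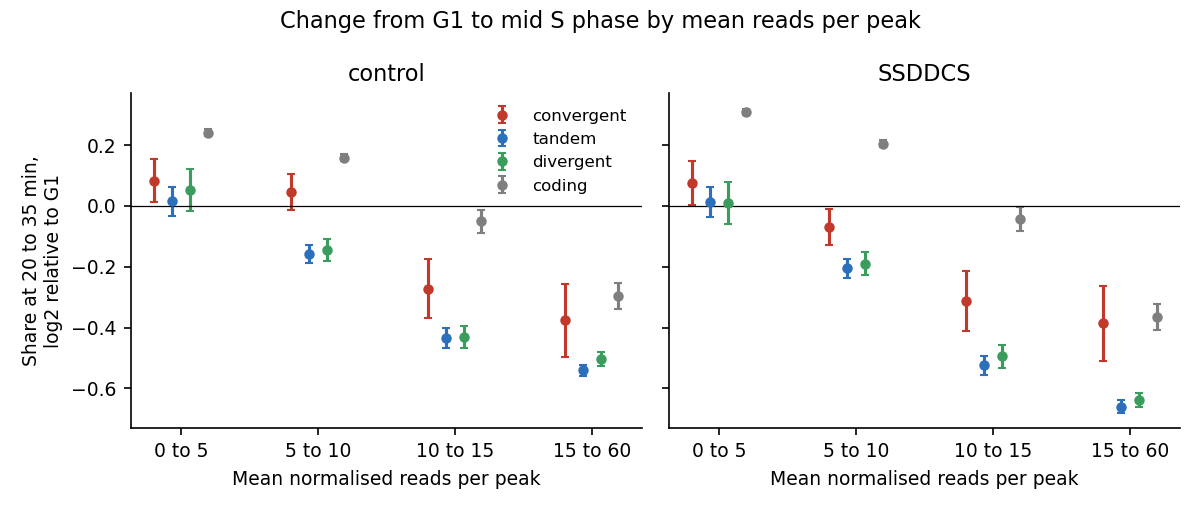
Change of the share from G1 to 20 to 35 min (log2, y axis) for peaks binned by mean normalised reads (x axis), by class, in the control (left) and SSDDCS (right). Points are sums over the peaks of a bin and bars are 95% counting intervals. In every bin the convergent points lie above the tandem and divergent ones. The intervals overlap below 5 reads, and with divergent peaks at 15 to 60 reads in the control.

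Peak by peak, 63 of the 172 high-confidence members (36.6%, 29.4% to 44.3%) were lower at mid S phase than in G1 in both strains. Single-peak changes here and below used totals over all peaks, rDNA included, so they are not on the scale of the class changes above. The 36.6% stood beside 43.0% of all high-confidence peaks and 61.0% of tandem ones. In both strains 47 members (27.3%, 20.8% to 34.6%) were higher, near the 25.5% of all high-confidence peaks and above the 11.3% of tandem ones. Within a strain, 113 members (65.7%) had a step of 2-fold or more between neighbouring time points in the control, and 113 in SSDDCS, against 55.3% and 55.2% of all high-confidence peaks. Members were shallower than the average high-confidence peak, with a median of 11.1 against 12.2 reads, and counting noise is larger at low depth.

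Of the 5 members with the largest drop in both strains, 1 lay beside an RNA gene. The LEU3-SST2 peak, in a gap behind the gene of the leucine pathway regulator Leu3, had 21 reads in control G1 and 7 to 11 at 20 to 35 min, and in SSDDCS 27 and 8 to 10. Its log2 differences were -1.15 and -1.36. The MSS4-YDR209C peak differed by -1.12 and -1.28, SND3-IML3 by -0.91 and -1.44, RPA190-YOR342C by -1.14 and -0.98, and LAM1-LIN1, 263 bp upstream of SNR71, by -1.11 and -0.95. Control reads at LEU3-SST2 were back at 25 by 50 min and 22 at 60 min, while SSDDCS had 11 in both. Choosing peaks for their drop favours those with a high count in the 1 G1 library of each strain.

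The 5 with the largest gain were CSM3-ERB1, MGM101-RPS4A, RPL31A-BRE1, RPS3-MRPL22 and CHS5-JIP3, of which RPL31A-BRE1 also held the snoRNA gene SNR63. A ribosomal protein gene flanked 3 of these 5, and a ribosomal protein or glycolytic gene flanked 30 of all 172. The CSM3-ERB1 peak, behind CSM3, which encodes a component of the replication fork, had 9 reads in control G1 and 12 to 20 at 20 to 35 min, and in SSDDCS 7 and 9 to 19. Its log2 differences were 0.80 and 0.94. The other 4 had 3 to 10 reads in G1, and choosing peaks for their gain favours those with a low G1 count.

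Ribosomal protein and glycolytic genes, listed by name, were looked at as a group, and their transcription was not measured here. Among gaps with no other feature, the 87 members beside such a gene had a median of 5.68 reads and 26.4% (17.6% to 37.0%) were high-confidence, while the other 1036 had a median of 4.62 and 11.9% (9.97% to 14.0%). From G1 to mid S phase the former differed by 0.09 (-0.05 to 0.23) in the control and 0.11 (-0.03 to 0.25) in SSDDCS, and the latter by -0.03 (-0.07 to 0.01) and -0.11 (-0.15 to -0.06). Of the 23 high-confidence members beside a listed gene in these gaps, 8 were higher and 5 lower in both strains, and of the other 123, 32 were higher and 47 lower.

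Distance to an origin of replication ordered the members in early S phase. At 15 min the 228 members within 5 kb of an annotated origin differed from G1 by 0.23 (0.12 to 0.33) in the control and 0.24 (0.14 to 0.34) in SSDDCS. The 464 members over 15 kb away differed by -0.15 (-0.24 to -0.07) and -0.33 (-0.41 to -0.24). The 504 members in between differed by -0.04 (-0.12 to 0.04) and -0.10 (-0.18 to -0.02). By 40 min the 3 groups lay between -0.05 and 0.02 in the control and between -0.11 and -0.07 in SSDDCS.

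All other classes had the same order at 15 min. Peaks in coding sequence had 0.29 within 5 kb and -0.03 over 15 kb away in the control, and 0.43 and -0.16 in SSDDCS. Tandem peaks had -0.09 and -0.32 in the control, and -0.11 and -0.37 in SSDDCS. Divergent peaks had -0.14 and -0.32, and -0.07 and -0.41. Peaks near origins have more DNA copies once replicated, and copy number was not separated from protection here.

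**Figure D3:**
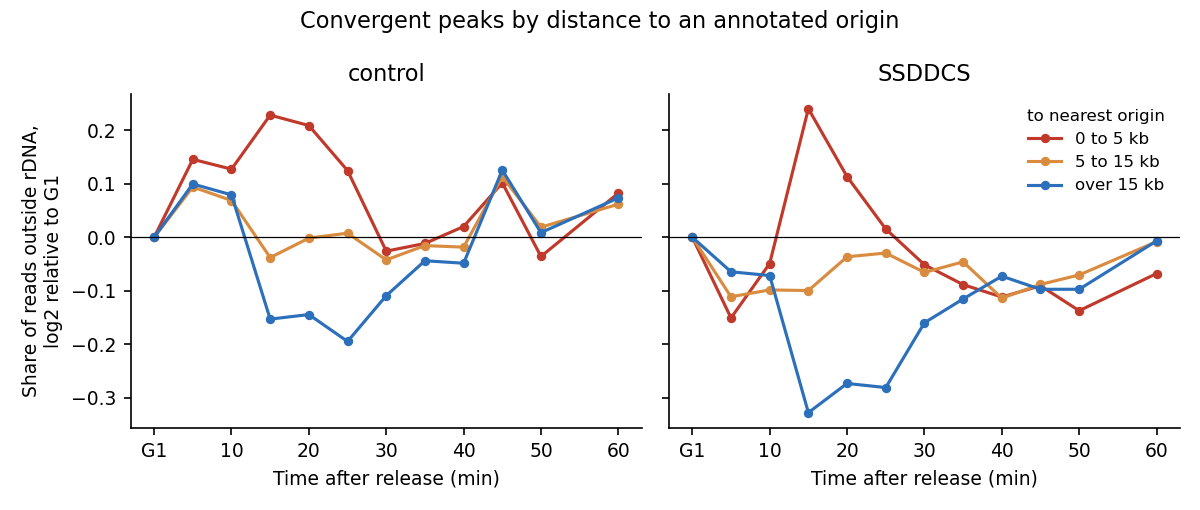
Share of reads outside rDNA in convergent peaks, as log2 relative to G1 (y axis), by minutes after release (x axis) and distance to the nearest annotated origin, in the control (left) and SSDDCS (right). Peaks within 5 kb stand at 0.23 and 0.24 at 15 min, and peaks over 15 kb away at -0.15 and -0.33.

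The strains differed little over the class as a whole. The log2 ratio of SSDDCS to control of the summed reads was 0.09 (0.04 to 0.14) in G1 and -0.12 (-0.17 to -0.07) at 5 min, the lowest value. It was -0.07 at 10 min and -0.12 (-0.17 to -0.07) at 45 min, and lay between -0.01 and 0.06 at the other 8 time points after G1. Over the 11 later time points it averaged -0.01 ± 0.06 (SD), against -0.09 ± 0.09 in tandem gaps. In high-confidence members the ratio at 5 min was -0.33 (-0.41 to -0.25), with 2652 reads in the control and 2164 in SSDDCS, and the ratio in tandem high-confidence peaks was -0.37.

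At single peaks, 131 of the 172 high-confidence members (76.2%, 69.1% to 82.3%) were 2-fold different at 1 or more time points after G1, against 64.2% of all high-confidence peaks. Within bins of mean reads the gap was small in the middle bin only. At 10 to 15 reads 74.4% (63.6% to 83.4%) of members and 72.2% of other high-confidence peaks were called, while below 10 reads they were 89.8% (79.2% to 96.2%) and 80.8%. At 15 to 60 reads they were 54.8% (36.0% to 72.7%) and 44.0%. The count of 131 became 35 at a 3-fold threshold and 10 with a pseudocount of 10. No share of all high-confidence peaks is given at these settings, so they show only how the call depends on its threshold.

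The calls were seldom sustained. In G1, 18 members (10.5%) were 2-fold different, against 8.52% of all, and at 5 min 27 (15.7%), against 14.1%. A call in 1 direction at 2 neighbouring time points was made for 19 members (11.0%, 6.78% to 16.7%), against 7.58%. At 6 or more time points 1 member was 2-fold different, against 0.402% of all. Of the members, 2 were higher in SSDDCS at all 11 time points and 0 were lower, which allows a share of up to 2.12%, against 0.645% and 0.584% of all. The average of the 11 log2 ratios was within 0.5 of 0 for 164 of the 172. Its spread was like that of all high-confidence peaks, with an SD over peaks of 0.259 in members and 0.258 in all.

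The 1 sustained member was the peak between CYC1, which encodes iso-1-cytochrome c, and UTR1, which encodes an NAD kinase. It lay at position 526730 of chromosome X, 66 bp behind the CYC1 stop in a gap from 526665 to 526883. In the control its reads from G1 to 60 min were 6, 8, 15, 6, 8, 11, 9, 12, 5, 7, 7 and 7. In SSDDCS they were 31, 33, 31, 23, 24, 23, 27, 32, 21, 24, 30 and 22. The lowest SSDDCS library was above the highest control library, G1 included.

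Over the 11 later time points the ratio averaged 1.59 ± 0.33 (SD) on the log2 scale, which is 3.00-fold, and it was 2.24 in G1. With a pseudocount of 10 the average was 1.00. The ratio exceeded 2-fold at 11 of 11 time points, and the next highest mean ratio of any high-confidence member was 0.64. After G1 SSDDCS held 75.3% of the reads of both strains in this peak (70.7% to 79.6%), where equal occupancy would give 49.2%. The change with time was small beside this, with a mid S phase value of 0.70 against G1 in the control and -0.16 in SSDDCS.

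The difference was seen at 1 position of the locus. The other 10 peaks from 1 kb before the CYC1 start to 1.5 kb beyond the gap had mean ratios from -0.39 to 0.55. The CYC1 promoter peak at 526130 had 285 reads in the control and 267 in SSDDCS, and the peak within UTR1 at 526930 had 114 and 128. The CYC1 3' end is a widely used terminator in yeast vectors, and the genotype of SSDDCS names 3 added constructs without naming their terminators. The native GAL1-GAL10 promoter, present in extra copies in that strain, had 3 peaks with mean ratios of 1.67 to 2.23. Whether reads from the constructs were placed at CYC1-UTR1 was not tested.

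**Figure D4:**
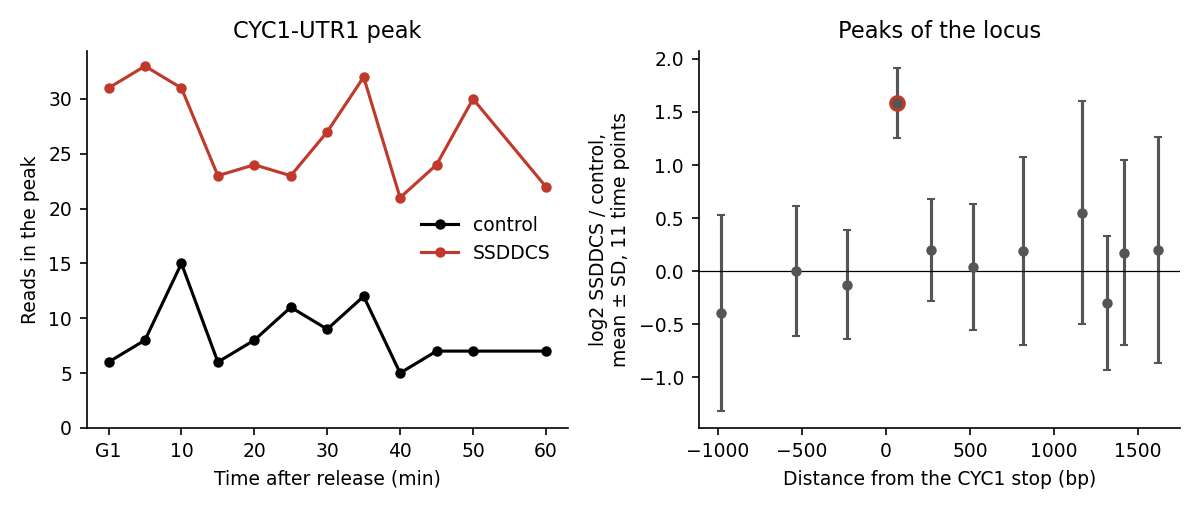
Left, reads in the CYC1-UTR1 peak (y axis) by minutes after release (x axis), 1 library per point. Right, mean log2 ratio of SSDDCS to control after G1 (y axis, bars are the SD over 11 time points) of the peaks of the locus by distance from the CYC1 stop (x axis). The red point at 66 bp stands at 1.59, and the others lie between -0.39 and 0.55.

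The other member higher at all 11 time points was LEU2-NFS1 at position 92576 of chromosome III, 158 bp behind LEU2. It had 4 to 11 reads in the control (median 6.5) and 7 to 15 in SSDDCS (median 9), and the ranges overlapped. Its mean ratio was 0.56 ± 0.42, past 2-fold at 2 time points. With totals that leave out rDNA it was not higher at all 11. LEU2 marks one of the constructs of SSDDCS, so the number of copies of this sequence and the strain cannot be told apart.

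On the lower side, 3 members (1.74%, 0.361% to 5.01%) were below the control at 10 of 11 time points, and 2.42% of all high-confidence peaks were so at 10 or more. The STP2-ERG11 peak had 7 to 18 reads in the control (median 11.5) and 4 to 14 in SSDDCS (median 6.5), with a mean ratio of -0.75 ± 0.42. The RPL43A-THP3 peak, 7 bp from the end of THP3, had 6 to 20 and 4 to 10 reads, and a mean ratio of -0.75 ± 0.42. The DCP1-SPT20 peak, 5 bp behind the gene of the decapping subunit Dcp1, had 8 to 16 and 5 to 13 reads, and a mean ratio of -0.50 ± 0.35. In all 3 the ranges of the strains overlapped.

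**Figure D5:**
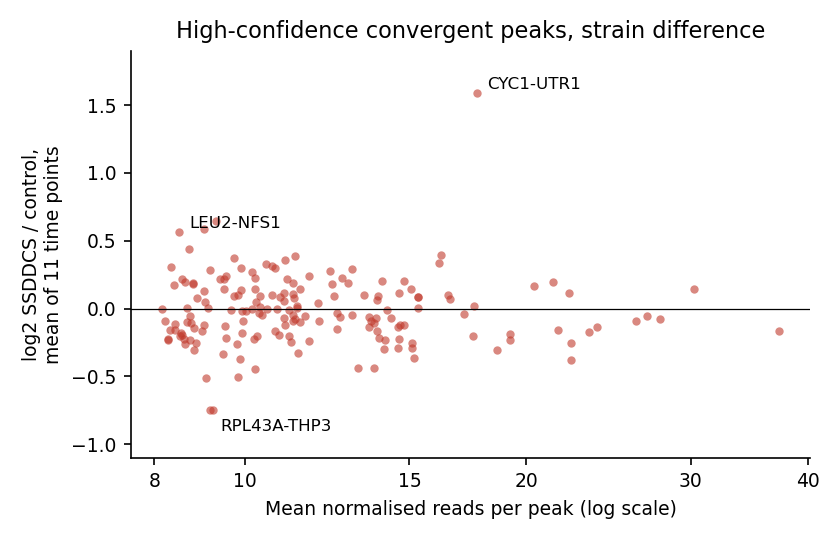
Mean log2 ratio of SSDDCS to control over the 11 time points after G1 (y axis) against mean normalised reads (x axis, log scale) for the 172 high-confidence convergent peaks, 1 point per peak. CYC1-UTR1 stands at 1.59, and all others lie between -0.75 and 0.64.

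GAL2 and GCY1, both induced by galactose, each had 1 convergent member behind them. The GAL2-SRL2 peak had 7 to 23 reads in the control (median 10) and 3 to 18 in SSDDCS (median 10), with a mean ratio of -0.20 ± 0.81. The GCY1-PFY1 peak was not high-confidence, with 1 to 8 and 2 to 8 reads. The gap behind SLD3, one of the overexpressed factors, held no peak. The peak behind HTB2, which encodes histone H2B, had 3 to 25 reads in the control, highest at 15 min, and 3 to 11 in SSDDCS, and its mean ratio was -0.37 ± 0.86.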

How the data were processed

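Sub-nucleosomal MNase-seq was measured in 24 libraries, 1 per strain and time point. Chromatin was crosslinked and digested with 5 U of MNase for 20 min. Per the labels, the authors used Bowtie2 2.2.6, SAMtools 0.1.19 and the sacCer3 build. According to the methods, they kept fragments under 100 bp, drew equal reads per fragment size and called peaks on the merged libraries. The deposited table held counts of reads in each peak for each library and the position of the peak, and the width of the counting window was not given. Equal sampling removes differences in fragment length and depth among the sampled fragments. Totals of reads in peaks still lay between 481930 and 536253.

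Counts were divided by the library total over all peaks, scaled to the mean total and compared on the log2 scale with a pseudocount of 1, which understates ratios of shallow peaks. Gaps and features came from the RefSeq annotation of R64, in which gene bounds carry no untranslated regions, so gene ends are stop codons. No test was run, since each group held 1 library. Shares have exact Clopper-Pearson intervals and log2 values of sums have Poisson intervals, both at 95%. The calculation of strain ratios was tested on simulated data.

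Named peaks were the 10 deepest, those of 1 sign at all or nearly all time points, the 5 with the largest drop and gain to mid S phase, and those of gaps next to galactose or altered genes or with most high-confidence peaks. MET10-SMC2 held a left-out feature. Motif-bearing peaks and HTB2-ECM15 were added once values were known, as were the 400 bp limit for RNA genes and the depth bins. The members and lists were chosen with earlier results of these data known. Python 3 was used with numpy, pandas, scipy and matplotlib.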

Additional observations from a re-analysis of the deposited data

Results flagged for a closer look

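The DCP1-SPT20 peak moved in opposite directions from G1 in the strains. Its normalised reads (plus 1) after G1 were above G1 at all 11 time points in the control, by 0.53 on average on the log2 scale, and below G1 at all 11 in SSDDCS, with an average of -0.66. The difference was not tested, and it rests on 1 G1 library in each strain, with 8 reads in the control and 13 in SSDDCS. The control also had 8 reads at 20 min, where only the scaling put it above G1. The peak had been named for a lower value in SSDDCS at 10 of 11 time points, which favours such a pattern.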

How the results depend on the processing

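With 1 library per group, limits come from depth: the median member had under 5 reads per library, so single peaks and time points carry large counting error.

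With means in place of medians, reads per peak were 5.56 in convergent, 10.55 in tandem, 11.4 in divergent and 4.64 in coding peaks. With peaks at least 50 bp from both gene ends, tandem and divergent medians were 8.57 and 9.73. With all reads in peaks as the denominator, the convergent share was 1.18% to 1.49%, the change to mid S phase was 0.0593 in the control and turned to 0.0810 in SSDDCS, and the ratio of strains became -0.0437 (5 min), 0.142 (20 min) and 0.0892 (60 min). The cause was not tested.

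With high-confidence peaks only, the share was 0.542% to 0.800%, the change was -0.205 and -0.332, and strain ratios that moved were -0.329 (5 min), -0.155 (10 min), -0.141 (20 min), 0.112 (25 min), 0.119 (40 min), -0.115 (50 min) and -0.135 (60 min). With low-confidence peaks only, the change was 0.0512 in the control and turned to 0.0274 in SSDDCS, and ratios were 0.00263 (5 min, turned), 0.0845 (20 min), 0.0486 (50 min) and 0.0645 (60 min). Convergent reads per 100 tandem reads ran from 5.22 to 7.15 in high-confidence and from 34.8 to 40.0 in low-confidence peaks.

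The 131 members with a 2-fold strain difference became 35 at 3-fold, 10 with a pseudocount of 10 and 41 among peaks above the median signal of all high-confidence peaks. These counts have no share of all high-confidence peaks beside them and do not set members apart. Leaving out 1 time point gave 121 to 129. With totals without rDNA, 1 member in place of 2 was higher at all 11 time points. Within 25 bp, Abf1 was at 3 members, SCB at 2, Tbf1 at 1, Rsc3 at 3, TATATA at 2 and the run of 7 A at 26. With a pseudocount of 10 the CYC1-UTR1 mean ratio was 1.00.

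Leaving out 1 of the mid S phase libraries gave -0.04 to -0.02 in the control and -0.10 to -0.09 in SSDDCS. Leaving out the 5 min time point kept 2 members higher and 0 lower. Leaving out the CYC1-UTR1 peak, or gaps with another feature, was chosen after seeing the data and moved no class value beyond its counting interval. No paired analysis was possible because each group held 1 library and so 1 replicate number, which leaves no pairs to block on. The strains were set side by side within time points throughout.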
